A study of Mus musculus with 9 samples.

Results

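Haemoglobin, haem and platelet transcripts were followed in fluorescently sorted mouse tumour cells through 7 genes, selected by exact symbol from the 23799 genes of the deposited expression table. All 7 were found once each: the alpha-globin genes Hba-a1 (ENSMUSG00000069919) and Hba-a2 (ENSMUSG00000069917), the adult beta-globin genes Hbb-b1 (ENSMUSG00000052305) and Hbb-b2 (ENSMUSG00000073940), the haem enzyme gene Alas2 (ENSMUSG00000025270), and the platelet chemokine genes Pf4 (ENSMUSG00000029373) and Ppbp (ENSMUSG00000029372). Current RefSeq symbols for the 2 beta-globin rows are Hbb-bs and Hbb-bt. Expression had been measured by RNA sequencing in 9 libraries. The breast cancer (BC) model was derived from 4T1-eGFP, a GFP-labelled mouse mammary carcinoma cell line, and GFP-positive cells were collected at 28 days from primary tumours 1 and 5 and from lung metastases 4 and 6, as the labels number them. The pancreatic ductal adenocarcinoma (PDAC) model carried p48-Cre, a Cre driver of the pancreatic lineage, with p53F/+, KrasL/+ and the Cre-dependent ROSA-LSL-YFP reporter. YFP-positive cells were collected from primary tumours 1 and 5, from liver metastases with the same numbers and from a single lung metastasis numbered 1. PDAC number 1 was 25.67 weeks old and its genotype label also carries SIRT6F/F, whereas number 5 was 28.95 weeks old and its label lacks it, so age, SIRT6 label and number cannot be told apart. The mouse strain and the purity of the sorts are not given in the sources used here, and the labels call both models orthotopic.

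Haemoglobin of adult blood is a tetramer of alpha and beta chains, each holding a haem group, and its transcripts accumulate to very high levels in maturing erythroblasts and persist in reticulocytes, the youngest circulating red cells. Alas2 encodes the erythroid form of 5-aminolevulinate synthase, which catalyses the entry step of haem synthesis. Platelets are released by megakaryocytes, which share a progenitor with the erythroid lineage, and store platelet factor 4 (Pf4) and pro-platelet basic protein (Ppbp), chemokines of the CXC family, in their alpha granules.

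The near-identity of the globin copies bears on every value given for a single copy. In GENCODE release M21 the coding sequences of Hba-a1 and Hba-a2 were 426 bases long and differed at 1 position, C381T, counted from the A of the start codon. Those of Hbb-b1 and Hbb-b2 were 441 bases long and differed at 1 position, C417T. The coding stretches around these positions, from base 361 to base 401 for the alpha pair and from base 397 to base 437 for the beta pair, are shown with the differing base in capitals.

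Hba-a1 coding: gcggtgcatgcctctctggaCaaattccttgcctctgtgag
Hba-a2 coding: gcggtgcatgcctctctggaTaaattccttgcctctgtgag
Hbb-b1 coding: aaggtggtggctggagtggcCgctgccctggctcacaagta
Hbb-b2 coding: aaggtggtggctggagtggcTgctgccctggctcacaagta

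The longest run shared by the alpha pair was 380 bases and that shared by the beta pair 416 bases. A read that lies within such a run fits both copies, so the division of reads within a pair is uncertain. Sums of RPKM over a pair also depend on this division, because the copies differ in exonic length. Hba-a1 and Hba-a2 measured 812 and 667 bases, and Hbb-b1 and Hbb-b2 768 and 703 bases. How reads that fit both copies were counted is unknown. The effect on the sums, shares and chain ratios below was not tested. The beta-globin locus also differs between common mouse strains, and its effect on the beta rows was not tested.

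The promoters of the members are shown beside their expression. The haemoglobin genes and Alas2 moved together across libraries while Pf4 and Ppbp followed them less closely. Whether promoter sequence has a part in this was not tested. Each sequence is the 250 bases before the annotated start of the gene in RefSeq (GRCm38.p6), 5′ to 3′ on the strand of the gene, with matches to 4 short motifs in capitals: GATAA (the core bound by GATA factors), CACCC (bound by Krüppel-like factors), CCAAT and TATAA, each searched on both strands. The window of Hba-a2, at chr11:32296242-32296491 on the plus strand, shared a run of 247 bases with that of Hba-a1 and is not printed. The others lie at chr11:32283422-32283671 (plus strand), chr7:103827929-103828178 (minus strand), chr7:103813924-103814173 (minus strand), chrX:150547167-150547416 (plus strand), chr5:90772185-90772434 (plus strand) and chr5:90768268-90768517 (plus strand).

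Hba-a1: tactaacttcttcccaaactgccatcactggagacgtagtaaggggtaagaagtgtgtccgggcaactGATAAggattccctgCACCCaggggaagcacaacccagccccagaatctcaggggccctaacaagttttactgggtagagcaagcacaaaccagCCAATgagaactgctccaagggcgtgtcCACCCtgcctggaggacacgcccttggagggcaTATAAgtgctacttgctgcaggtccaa
Hbb-b1: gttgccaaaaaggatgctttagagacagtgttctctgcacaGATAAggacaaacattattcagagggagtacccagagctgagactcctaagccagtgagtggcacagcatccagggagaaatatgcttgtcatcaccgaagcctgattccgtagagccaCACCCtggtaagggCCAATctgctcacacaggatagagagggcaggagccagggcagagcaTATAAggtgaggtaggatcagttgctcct
Hbb-b2: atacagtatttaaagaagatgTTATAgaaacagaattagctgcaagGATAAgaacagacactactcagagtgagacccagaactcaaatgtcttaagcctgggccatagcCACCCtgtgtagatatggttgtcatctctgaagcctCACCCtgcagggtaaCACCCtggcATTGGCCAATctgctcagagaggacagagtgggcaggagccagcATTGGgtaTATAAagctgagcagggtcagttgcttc
Alas2: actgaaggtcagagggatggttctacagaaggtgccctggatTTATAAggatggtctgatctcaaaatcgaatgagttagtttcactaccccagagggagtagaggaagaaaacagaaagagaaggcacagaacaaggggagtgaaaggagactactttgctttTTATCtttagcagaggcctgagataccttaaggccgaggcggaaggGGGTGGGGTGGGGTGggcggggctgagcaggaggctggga
Pf4: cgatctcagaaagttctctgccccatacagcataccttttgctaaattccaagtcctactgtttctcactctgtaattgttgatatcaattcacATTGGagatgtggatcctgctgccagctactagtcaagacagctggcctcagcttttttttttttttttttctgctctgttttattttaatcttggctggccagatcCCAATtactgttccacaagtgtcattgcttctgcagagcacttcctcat
Ppbp: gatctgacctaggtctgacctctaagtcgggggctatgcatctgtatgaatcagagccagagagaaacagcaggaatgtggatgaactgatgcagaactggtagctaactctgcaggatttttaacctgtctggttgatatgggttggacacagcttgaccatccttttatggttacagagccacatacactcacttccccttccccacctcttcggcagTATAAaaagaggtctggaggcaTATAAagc

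GATAA was found once in each of the 5 erythroid promoters and in neither platelet promoter, and 22.6% of 32841 RefSeq promoter windows of the same length held GATAA. The shorter string GATA, which was not searched for, can be read in both platelet windows, so only the 5-letter GATAA is absent there. The first base of GATAA lay at -182 in Hba-a1, -209 in Hbb-b1, -204 in Hbb-b2 and, on the opposite strand, -86 in Alas2, counted back from the start. CACCC was likewise in all 5 erythroid windows and in neither platelet window, against 52.0% of all windows. TATAA, held by 22.8% of windows, lay at -27 in Hba-a1, -29 in Hbb-b1, -28 in Hbb-b2 and -30 and -8 in Ppbp, was matched at -207 in Alas2, and was absent from the Pf4 window. CCAAT, held by 33.9%, was in the 4 haemoglobin windows and, with 2 matches, in that of Pf4. In Alas2 the match at -207 overlaps a match of TATAA on the other strand. A match describes letters in a window and not a bound site. The Hba-a1 and Hba-a2 windows are nearly the same sequence, so the 5 erythroid windows are not 5 separate observations.

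Values are in RPKM, the reads of a gene divided by its length and by a scaling total of the library. These totals were between 12800000 reads (the PDAC lung metastasis) and 131000000 reads (BC primary 5). The genes listed above 0 numbered 9530 in the PDAC lung metastasis, 10410 in PDAC primary 5 and 10938 in BC lung metastasis 6, against 12144 to 20478 in the other libraries. Labelled tumour identity was read from 6 epithelial genes, which summed to 0.373 to 2.97% of RPKM in 7 libraries but to 0.0229% in PDAC liver metastasis 5 and 0.0134% in the PDAC lung metastasis. The alveolar gene Sftpc stood at 34207 RPKM in that lung metastasis and at or below 20.6 RPKM elsewhere. Because each library pools many cells, fewer cells of a type and less RNA per cell cannot be told apart in any value below.

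**Figure D1:**
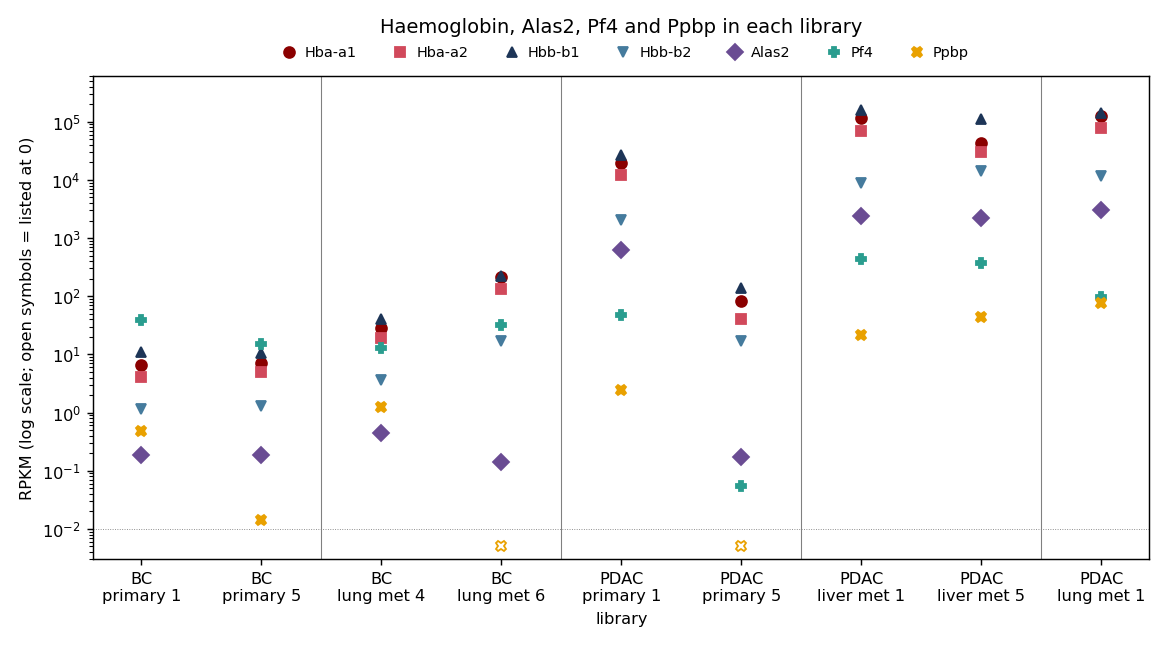
RPKM of the 7 genes (log axis) in each of the 9 libraries, 1 symbol per gene and library, with values listed at 0 drawn as open symbols at the foot. The haemoglobin genes and Alas2 stand high in PDAC primary 1 and the 3 PDAC metastases, and PDAC primary 5 lies with the BC libraries for Alas2 and Ppbp.

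Both alpha-globin genes were high in the same 4 PDAC libraries. Hba-a1 measured 6.55 and 7.20 RPKM in BC primaries 1 and 5, and its BC lung metastases 4 and 6 held 28.2 and 211 RPKM. PDAC primaries 1 and 5 held 19917 and 82.6 RPKM of it, PDAC liver metastases 1 and 5 held 118269 and 43446 RPKM, and the PDAC lung metastasis held 126153 RPKM. Every PDAC metastasis exceeded every primary tumour, and the lower PDAC primary lay between the BC lung metastases. Hba-a2 was at 4.02 and 5.08 RPKM in the BC primaries, 19.0 and 134 RPKM in the BC lung metastases, 12307 and 41.0 RPKM in the PDAC primaries, 69871 and 29660 RPKM in the PDAC liver metastases and 77415 RPKM in the PDAC lung metastasis, in the same library order. The ratio of Hba-a1 to Hba-a2 stayed between 1.42 and 2.01 over all 9 libraries, although the values themselves spanned more than 4 orders of magnitude.

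Hbb-b1 was the most abundant member in every PDAC library and ranked first of all genes in each of the 3 PDAC metastases. It stood at 11.2 and 10.6 RPKM in the BC primaries, 41.0 and 222 RPKM in the BC lung metastases, 26378 and 136 RPKM in the PDAC primaries, 160670 and 111689 RPKM in the PDAC liver metastases and 141700 RPKM in the PDAC lung metastasis. Hbb-b2 was the least abundant of the haemoglobin genes in each library, at 1.17 and 1.29 RPKM in the BC primaries, 3.67 and 16.8 RPKM in the BC lung metastases, 2049 and 16.8 RPKM in the PDAC primaries, 8699 and 14057 RPKM in the PDAC liver metastases and 11657 RPKM in the PDAC lung metastasis. It was the only haemoglobin gene higher in PDAC liver metastasis 5 than in PDAC liver metastasis 1. The ratio of Hbb-b1 to Hbb-b2 was 18.5 in PDAC liver metastasis 1 and 7.95 in PDAC liver metastasis 5, the extremes of the 9 libraries. Low ratios also came from PDAC primary 5, at 8.11, and from BC primaries 5 and 1, at 8.24 and 9.53, and the other 4 libraries gave 11.2 to 13.2.

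The balance of the chains was closer than their levels. The summed alpha genes divided by the summed beta genes gave 0.858 and 1.03 in the BC primaries, 1.06 and 1.44 in the BC lung metastases, 1.13 and 0.809 in the PDAC primaries, 1.11 and 0.581 in the PDAC liver metastases and 1.33 in the PDAC lung metastasis. PDAC liver metastasis 5 was thus the lowest and BC lung metastasis 6 the highest. Together the 4 genes took 10.9% of the summed RPKM in PDAC primary 1 and 0.0582% in PDAC primary 5, 20.0 to 38.9% in the PDAC metastases and 0.00607 to 0.107% in the BC libraries.

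**Figure D2:**
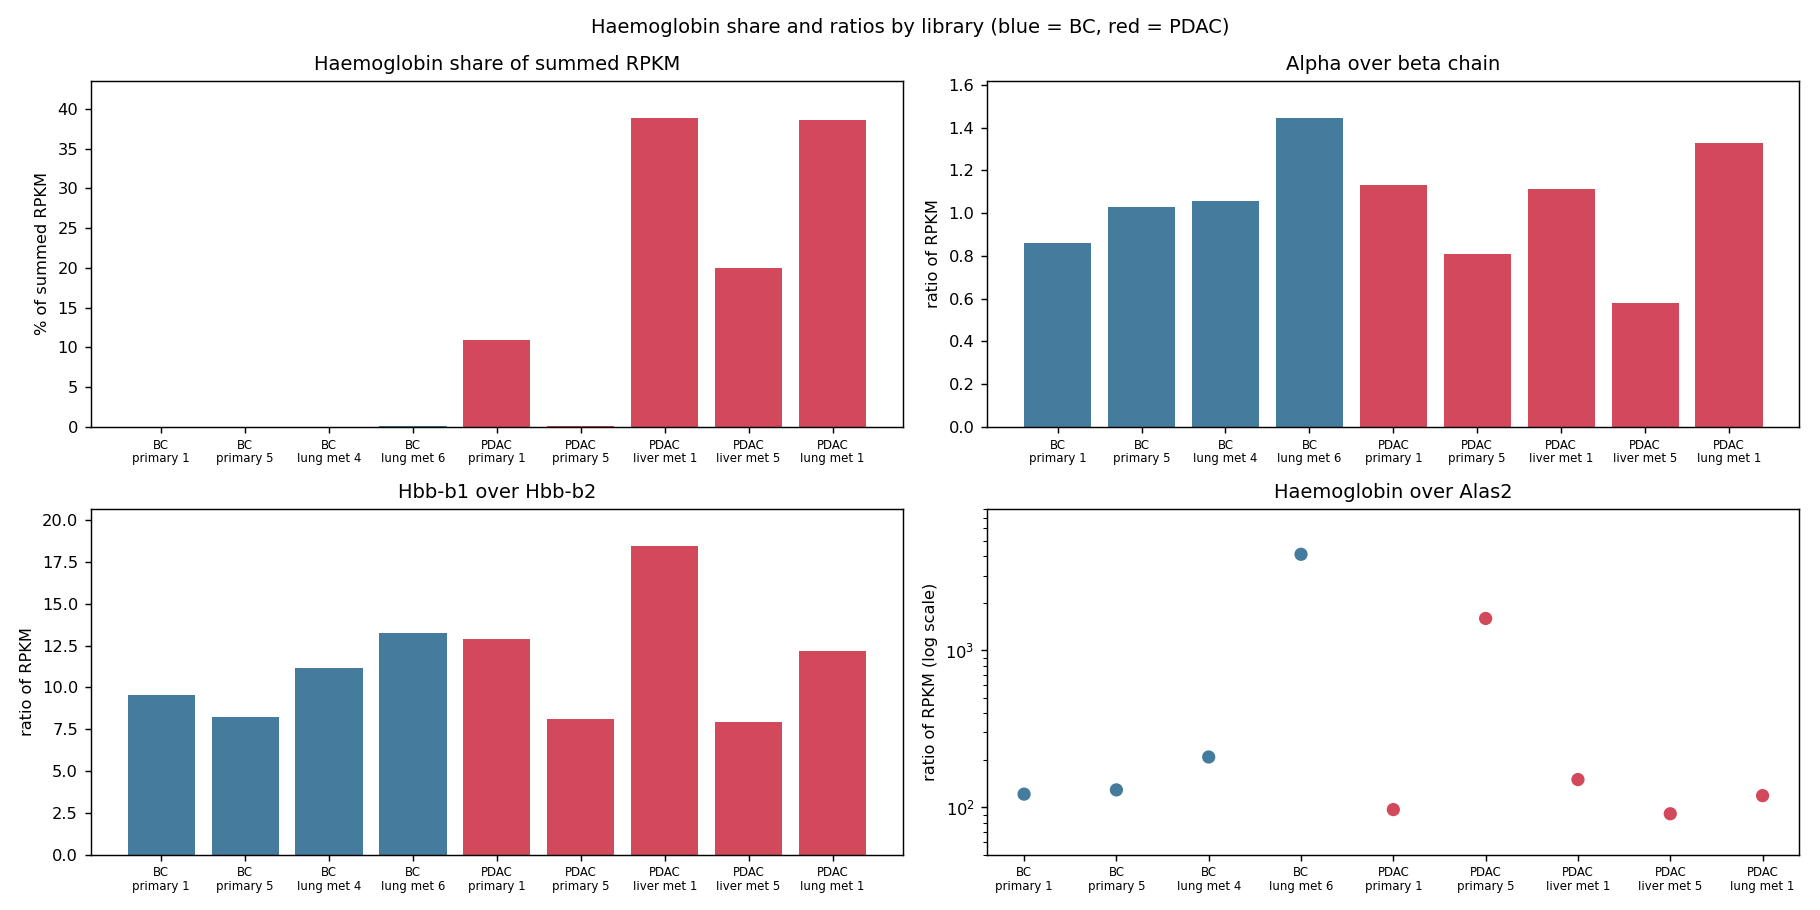
Haemoglobin share of the summed RPKM (%), and the RPKM ratios of alpha to beta chains, Hbb-b1 to Hbb-b2 and haemoglobin to Alas2 (log axis), for each library. The share reaches 38.9% in PDAC liver metastasis 1, the alpha to beta ratio stays between 0.581 and 1.44, and haemoglobin over Alas2 stands at 4100 in BC lung metastasis 6 and 1599 in PDAC primary 5 against 91.0 to 209 elsewhere.

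Alas2, the erythroid entry enzyme of haem synthesis, divided the libraries more sharply than haemoglobin did. Its high values were 627 RPKM in PDAC primary 1, 2377 and 2184 RPKM in the PDAC liver metastases (1 and 5) and 3006 RPKM in the lung metastasis of that model. PDAC primary 5 was at 0.173 RPKM, the BC primaries at 0.189 and 0.187 RPKM and the BC lung metastases at 0.439 and 0.143 RPKM. No library lay between 0.439 and 627 RPKM. With the gene length of GENCODE M21, the 5 low values correspond to about 38 and 59 reads in the BC primaries, 81 and 16 reads in the BC lung metastases and 13 reads in PDAC primary 5, so the transcript was detected in all of them.

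Haemoglobin and Alas2 kept a like proportion in 7 libraries and not in the other 2. Summed haemoglobin RPKM was 91.0 to 150 times Alas2 RPKM in PDAC primary 1 and the PDAC metastases, 121 and 129 times in the BC primaries and 209 times in BC lung metastasis 4. In PDAC primary 5 it was 1599 times and in BC lung metastasis 6 it was 4100 times. Those 2 libraries are also among the 3 with the fewest genes above 0, and the part of this in the ratio was not tested.

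Pf4 was present in every group, including those with little haemoglobin. It was at 38.8 and 15.1 RPKM in the BC primaries, 12.96 and 31.6 RPKM in the BC lung metastases, 47.0 and 0.0545 RPKM in the PDAC primaries, 442 and 377 RPKM in the PDAC liver metastases and 95.5 RPKM in the PDAC lung metastasis. The value in PDAC primary 5 corresponds to about 1 read. In the BC primaries Pf4 thus exceeded every haemoglobin gene, and the order was reversed in all 5 PDAC libraries.

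Ppbp was lower than Pf4 in every library. The PDAC liver metastases held 21.5 and 44.2 RPKM and the PDAC lung metastasis 76.8 RPKM, above all 6 other libraries, where PDAC primary 1 held 2.40 RPKM, the BC primaries 0.486 and 0.0141 RPKM and BC lung metastasis 4 1.24 RPKM. It was listed at 0 in PDAC primary 5 and BC lung metastasis 6. The ratio of Pf4 to Ppbp was 1.24 in the PDAC lung metastasis, 20.6 and 8.52 in the PDAC liver metastases, 19.6 in PDAC primary 1, 10.4 in BC lung metastasis 4 and 79.8 in BC primary 1, so the 2 platelet genes did not keep one proportion. In BC primary 5 the ratio of 1071 rests on about 2 Ppbp reads.

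Across the 9 libraries, log2 values of the haemoglobin genes correlated with one another at Pearson r of 0.992 to 1.000 and with Alas2 at 0.966 to 0.979. With Ppbp they gave 0.869 to 0.895 and with Pf4 0.695 to 0.710, and Pf4 with Ppbp gave 0.755. These are descriptions over 9 libraries that fall into a high and a low set and share depth and composition.

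The first comparison asked whether BC lung metastases differed from BC primaries. All 4 haemoglobin genes were higher in both metastases than in either primary, whereas Alas2, Pf4 and Ppbp overlapped between the sites. Non-overlap in this direction held for 15.8% of the 12832 genes tested. The log2(RPKM + 1) differences, which understate the change of genes with low values, were 3.32 ± 1.94 (SE, n = 2 against 2) for Hba-a1, 3.24 ± 1.99 for Hba-a2, 3.02 ± 1.82 for Hbb-b1 and 2.03 ± 1.68 for Hbb-b2, each with a limma adjusted p of 0.974. Those of Alas2, Pf4 and Ppbp were 0.11, -0.25 and 0.29, with an adjusted p of 1. None of the 7 passed at an adjusted p under 0.05, as was so for 0% of all genes, and none had an unadjusted p under 0.05, a mark that 0.881% of genes met in the higher direction. Hba-a1, Hba-a2 and Hbb-b1 passed when limma was fitted to the 4 BC libraries alone. Their adjusted p were 0.000191, 0.00241 and 0.000625, in a fit that called 0.703% of its genes. Moderation there set the SE of Hba-a1 at 0.644, although its log2 values had an SD of 2.02 in the 2 BC lung metastases. Those p-values thus rest largely on the spread of all genes. Over every alternative computed, the adjusted p of Hba-a1 in this comparison ran from 0.000191 to 1. BC lung metastasis 6 supplied most of the difference, with haemoglobin at 0.107% of summed RPKM against 0.0235% in BC lung metastasis 4. Neutrophil markers were higher in the same libraries: the 10 genes summed to 2514 and 1541 RPKM in BC lung metastases 4 and 6 against 28.1 and 28.2 RPKM in the BC primaries. All 10 had positive differences (median 2.15 against -0.29 over all genes), S100a8, S100a9 and Retnlg with an unadjusted limma p under 0.05 and none after adjustment, and their part in the haemoglobin values was not tested.

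In the PDAC model all 7 genes were higher in both liver metastases than in either primary tumour, and none passed the adjusted test. Non-overlap in this direction held for 15.4% of genes. The log2 differences were 5.80 ± 1.94 (SE, n = 2 against 2) for Hba-a1, 5.98 ± 1.99 for Hba-a2, 6.14 ± 1.82 for Hbb-b1, 5.86 ± 1.68 for Hbb-b2, 6.39 ± 2.14 for Alas2, 5.85 ± 1.46 for Pf4 and 4.11 ± 1.11 for Ppbp. All 7 had an unadjusted limma p under 0.05, which 4.89% of genes had in this direction, and adjusted p of 0.338 to 0.547. Only 0.00779% of genes, 1 of 12832, passed the adjusted test in this comparison. That gene was Apoa2, an apolipoprotein gene of hepatocytes, at 8.78 with a limma adjusted p of 0.0425. The 8 hepatocyte markers summed to 923 and 2296 RPKM in PDAC liver metastases 1 and 5 against 1.91 and 248 RPKM in the PDAC primaries, where Apoa1 made up 245 RPKM of the higher sum. All 8 had positive differences (median 6.72 against 0.08 over all genes), 7 with an unadjusted p under 0.05. The markers summed to 1.23 RPKM in the PDAC lung metastasis, where summed haemoglobin was 356925 RPKM against 357509 RPKM in liver metastasis 1, and their part in the liver values was not tested.

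The 2 PDAC primaries lay far apart. Against PDAC primary 5 alone, with PDAC primary 1 left out, all 7 differences passed limma, at 4.99 to 10.92 with adjusted p of 0.000616 to 0.0294, in a fit that called 8.41% of all genes. Against PDAC primary 1 alone, with PDAC primary 5 left out, they were 1.85 to 3.23 and none passed. PDAC primary 5 had 10410 genes above 0 and PDAC primary 1 had lymphocyte genes at 5.79% of summed RPKM against 0.000431%, and the part of either in the difference was not tested.

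PDAC libraries of equal number agree in their age and genotype labels and were read as coming from 1 animal. In number 1, summed haemoglobin was 5.89 times as high in the liver metastasis as in the primary tumour, Alas2 3.79 times, Pf4 9.41 times and Ppbp 8.95 times. In number 5 the corresponding factors were 720 for haemoglobin, 12646 for Alas2 and 6917 for Pf4, the last resting on about 1 read in the primary, and Ppbp was listed at 0 in the primary. The direction was thus shared by both animals and the size was not. The RPKM summed over all other genes was 562687 and 793224 in the liver metastases against 496409 and 474508 in the primaries. With each library rescaled to a common sum without haemoglobin, the haemoglobin factors were 5.20 and 431.

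The single PDAC lung metastasis had erythroid values near those of the liver metastases. Its log2 differences from the PDAC primaries were 6.61 ± 2.38 (SE, n = 1 against 2) for Hba-a1, 6.75 ± 2.44 for Hba-a2, 6.22 ± 2.23 for Hbb-b1, 5.93 ± 2.05 for Hbb-b2, 6.79 ± 2.62 for Alas2, 3.76 ± 1.78 for Pf4 and 5.40 ± 1.36 for Ppbp. The library exceeded both primaries for all 7 genes, which 23.9% of genes did, and none passed limma at an adjusted p under 0.05, which 0.584% of genes did; the adjusted p were 0.110 for Ppbp and 0.238 to 0.395 for the others. Of the 7, 6 had an unadjusted p under 0.05, against 5.78% of genes in this direction. With PDAC primary 1 left out, a comparison of 1 library with 1, all 7 passed, as did 12.6% of genes. With PDAC primary 5 left out none of the 7 passed, and the differences were 1.01 (Pf4) to 4.52 (Ppbp). Within number 1, where the lung metastasis has its own primary tumour, haemoglobin was 5.88 times, Alas2 4.80 times, Pf4 2.03 times and Ppbp 32.0 times the primary value.

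Between the metastatic sites of the PDAC model, summed haemoglobin of number 1 was 357509 RPKM in liver and 356925 RPKM in lung. The log2 differences, liver minus lung, were -0.82 ± 2.38 (SE, n = 2 against 1) for Hba-a1, -0.77 ± 2.44 for Hba-a2, -0.08 ± 2.23 for Hbb-b1, -0.08 ± 2.05 for Hbb-b2 and -0.40 ± 2.62 for Alas2. Pf4 was the one member higher in both liver metastases than in the lung metastasis, at 2.08 ± 1.78, as were 42.3% of genes, and Ppbp was lower in both, at -1.29 ± 1.36, as were 22.1%. Hba-a1, Hba-a2 and Alas2 were also lower in both. None of the 7 passed limma at an adjusted p under 0.05 (0.759 to 1) or had an unadjusted p under 0.05, against 0.0312% of genes passing the adjusted test and, unadjusted, 7.99% higher and 2.66% lower. With the PDAC number as a replicate block the 5 erythroid differences changed sign, to between 1.46 and 1.95. The block is 1 shift for number 5 shared by primaries and liver metastases, so the gap between the primaries enters this contrast. Within number 1 itself the liver metastasis held 0.938 (Hba-a1), 0.903 (Hba-a2), 1.13 (Hbb-b1), 0.746 (Hbb-b2) and 0.791 (Alas2) times the lung value.

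**Figure D3:**
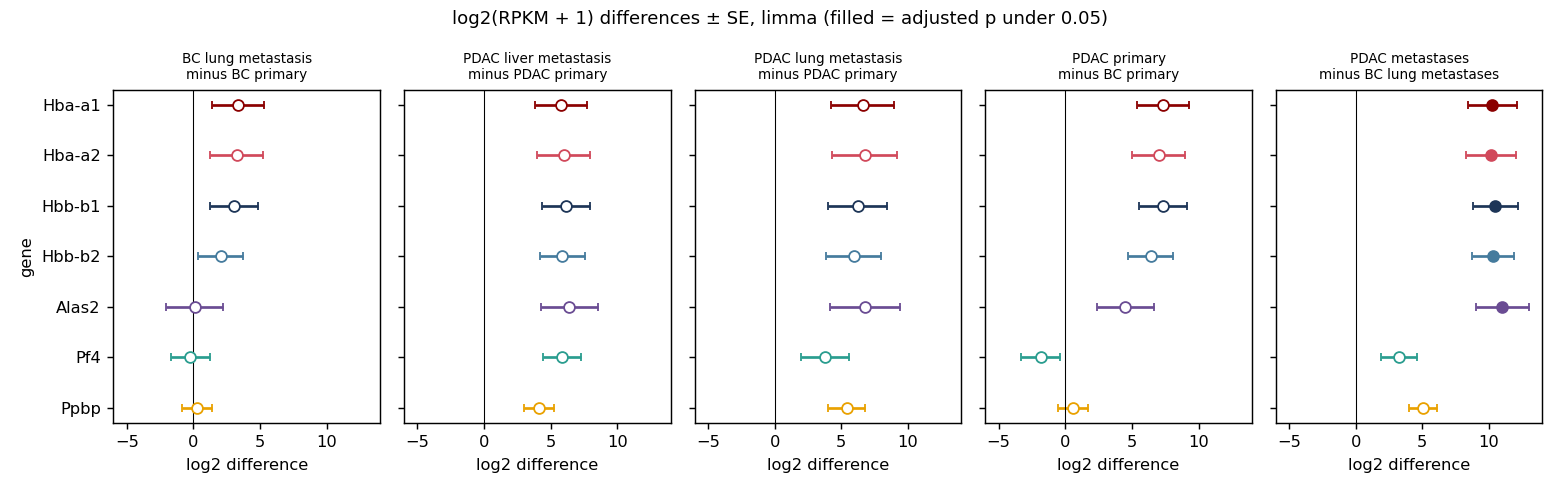
Differences in log2(RPKM + 1) with their standard errors for the 7 genes in 5 comparisons, from 1 limma fit over 9 libraries, with filled symbols for an adjusted p under 0.05. Filled symbols appear for the 4 haemoglobin genes and Alas2 in the comparison of PDAC with BC metastases, at 10.15 to 11.00.

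Among primary tumours, haemoglobin values were higher in the PDAC model, by a difference that did not pass the adjusted threshold. The 4 haemoglobin genes were higher in both PDAC primaries than in either BC primary, by 7.36 ± 1.94 (SE, n = 2 against 2) for Hba-a1, 7.02 ± 1.99 for Hba-a2, 7.32 ± 1.82 for Hbb-b1 and 6.42 ± 1.68 for Hbb-b2 on the log2 scale. Non-overlap in this direction held for 15.7% of genes. Alas2 (4.51 ± 2.14), Pf4 (-1.83 ± 1.46) and Ppbp (0.59 ± 1.11) overlapped. The limma adjusted p were 0.185 to 0.837, none passed, and 0.0312% of all genes did. At an unadjusted p under 0.05 the 4 haemoglobin genes passed, against 3.76% of genes in this direction. Without PDAC primary 5 the 4 haemoglobin genes and Alas2 passed the adjusted test, as did 1.63% of genes, and without PDAC primary 1 the 1 member to pass was Pf4, at -4.59 with a limma adjusted p of 0.0167 (up to 0.986 under other alternatives), beside 6.54% of genes. The direction of Pf4 thus depends on which PDAC primary is used.

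The comparison of PDAC with BC metastases was the one in which members passed. Here the 4 haemoglobin genes and Alas2 rose in the PDAC metastases, by 10.24 ± 1.82 (SE, n = 3 against 2; limma adjusted p = 0.0448) for Hba-a1, 10.15 ± 1.86 (0.0448) for Hba-a2, 10.47 ± 1.70 (0.0401) for Hbb-b1, 10.28 ± 1.57 (0.0332) for Hbb-b2 and 11.00 ± 2.00 (0.0448) for Alas2 on the log2 scale. Ppbp, at 5.06 ± 1.04, missed the threshold with an adjusted p of 0.0505, and Pf4, at 3.22 ± 1.36, had 0.242. The 3 PDAC libraries were read as coming from 2 animals, since liver metastasis 1 and the lung metastasis share a number. The fit treated all 3 as independent. The contrast set the mean of the liver group mean and the lone lung library against the BC lung mean. The unreplicated lung library thus carried as much weight as both liver libraries together. The 5 calls stand beside 0.507% of genes passing in the higher direction. All 7 genes were higher in each PDAC metastasis than in either BC metastasis, which 11.6% of genes were, and all 7 had an unadjusted p under 0.05, against 8.77%. Neither PDAC primary is part of this contrast, yet their spread (log2 SD of 5.58 for Hba-a1) enters the pooled estimate. It drops out when 1 of them is left out. The calls lay close to the threshold: none of the 7 passed when any 1 of BC primary 1, BC primary 5, BC lung metastasis 4, BC lung metastasis 6 or PDAC liver metastasis 5 was left out, 1 passed without PDAC liver metastasis 1, and 7 passed without PDAC primary 1 and, separately, without PDAC primary 5, in fits that called 10% and 9.7% of genes. Alas2 had an adjusted p of 0.0524 with the PDAC number as a replicate block, where 4 members and 0.195% of genes passed, within a range of 2.18e-05 to 0.372 over its alternatives. With the PDAC liver metastases alone on one side, a comparison chosen after seeing the data, 2 passed (Hbb-b1 and Hbb-b2), beside 0.444% of genes, and 5 passed when the 3 libraries with the fewest genes above 0 were also left out, beside 0.155%. The differences themselves were 8.09 to 13.29 for the 5 erythroid genes under every alternative computed. Lung is a site shared by both models, where Hba-a1 was at 126153 RPKM in the PDAC metastasis against 28.2 and 211 RPKM in the BC metastases. In a lung comparison of 1 library against 2, also chosen after seeing the data, the 5 erythroid differences were 10.32 to 11.20, and Hbb-b1 (limma adjusted p = 0.0472) and Hbb-b2 (0.0386) passed, beside 1.69% of genes. Model, fluorescent label and age differ together between these groups and cannot be told apart.

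Whether the metastasis effect differed between the models was tested as the PDAC liver difference minus the BC lung difference. It was 2.47 ± 2.74 (SE) for Hba-a1, 2.75 ± 2.82 for Hba-a2, 3.11 ± 2.57 for Hbb-b1, 3.83 ± 2.37 for Hbb-b2, 6.28 ± 3.03 for Alas2, 6.09 ± 2.06 for Pf4 and 3.83 ± 1.57 for Ppbp. None passed limma (adjusted p of 0.874 to 0.876), as for 0% of genes, and Pf4 and Ppbp had unadjusted p of 0.0141 and 0.0349, a mark reached by 3.34% of genes in this direction. Without PDAC primary 1, 3 members passed (Hbb-b2, Alas2 and Pf4), beside 0.244% of genes. Without PDAC primary 5 the 2 alpha genes and Hbb-b1 turned negative. The metastatic site, liver against lung, differs together with the model in this contrast, and site and model cannot be told apart.

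Over both models, metastases exceeded primaries by 4.82 ± 1.23 (SE, n = 5 against 4) for Hba-a1, 4.88 ± 1.27 for Hba-a2, 4.74 ± 1.17 for Hbb-b1, 4.13 ± 1.15 for Hbb-b2, 3.61 ± 1.59 for Alas2, 2.70 ± 1.22 for Pf4 and 2.61 ± 0.96 for Ppbp, with the model as a covariate. All 7 had an unadjusted limma p under 0.05, as did 2.19% of genes in this direction, and none passed after adjustment (0.738 for Hbb-b1 and 0.853 for the others), as against 0.00779% of genes. Each of the 7 overlapped between metastases and primaries (0.366% of genes were higher without overlap), since PDAC primary 1 lay above the BC metastases.

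The other genes of the erythroid lineage were read from lists of related genes. Of 9 other globin genes listed, 6 were in the table besides the members' own rows. The theta-like alpha globin gene Hbq1b was at 78.1, 86.8 and 164 RPKM in PDAC liver metastases 1 and 5 and the PDAC lung metastasis, at 12.7 RPKM in PDAC primary 1, and at or below 0.0295 RPKM in the other 5 libraries. Hbq1a followed at 19.1, 8.56 and 31.6 RPKM in the metastases and 1.41 RPKM in PDAC primary 1, and both rose in the comparison of PDAC with BC metastases (log2 differences of 6.85 and 4.41, limma adjusted p of 0.0448 and 0.0472). Hbb-y, an embryonic beta-like gene, reached no more than 1.84 RPKM. Adult haemoglobin therefore made up nearly all globin RPKM.

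The other genes of haem synthesis did not follow 1 pattern. Of 12 tested genes, 10 had positive and 2 negative differences between PDAC liver metastases and primaries, with a median of 0.10 on the log2 scale against 0.08 over all genes, and none passed limma after adjustment. Fech, encoding ferrochelatase, which inserts iron to complete haem, was among the genes that were highest where haemoglobin was high. It was at 909, 511 and 1649 RPKM in the PDAC metastases, 140 RPKM in PDAC primary 1, 0.0220 RPKM in PDAC primary 5, 16.9 to 21.6 RPKM in 3 BC libraries and 0.0443 RPKM in BC lung metastasis 6. Slc25a37, the gene of a mitochondrial iron importer and named after its values were seen, was at 72.6, 48.9 and 107 RPKM in the PDAC metastases, 19.1 RPKM in PDAC primary 1, 0.951 RPKM in PDAC primary 5 and 1.94 to 6.58 RPKM in the BC libraries. These were the 2 haem synthesis genes higher in PDAC liver metastases than primaries at an unadjusted limma p under 0.05. Tmem14c, a mitochondrial porphyrin transporter gene, stayed between 70.4 and 279 RPKM, and Alad, the enzyme gene that follows ALA synthase, between 33.0 and 216 RPKM with its highest value in PDAC primary 5.

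Several genes of the mature red cell were highest in the same libraries as haemoglobin. Of 13 tested membrane and skeleton genes, all 13 had positive differences between PDAC liver metastases and primaries (median 1.67), 6 with an unadjusted limma p under 0.05, against 4.89% of all genes, and none passed after adjustment. Between the PDAC lung metastasis and the primaries 6 were positive and 7 negative (median -0.0049), and 9 of the 15 genes in the table were listed at 0 in that haemoglobin-rich library. The 1 that passed there was Kel, a blood group gene named after its value was seen, at 4.40 with a limma adjusted p of 0.0494. Rhd, another blood group gene, was at 28.6 and 10.8 RPKM in PDAC liver metastases 1 and 5 but listed at 0 in the PDAC lung metastasis. PDAC primary 1 held 4.52 RPKM of Rhd, and the remaining libraries at most 1.24 RPKM. Slc4a1, encoding the band 3 anion exchanger, was at 10.9, 14.1 and 42.8 RPKM in the 3 PDAC metastases but at only 0.291 RPKM in PDAC primary 1. It passed in PDAC against BC metastases, at 4.59 with a limma adjusted p of 0.0448.

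Red cell enzyme genes that passed in that comparison included Bpgm (9.67, limma adjusted p = 0.0472) and the carbonic anhydrase gene Car2 (7.27, 0.0159), the latter named after its value was seen. Bpgm, whose product makes the oxygen-affinity regulator 2,3-bisphosphoglycerate, was at 1527, 708 and 2831 RPKM in the PDAC metastases and 333 RPKM in PDAC primary 1, against at most 4.50 RPKM elsewhere. Car2 differed from this pattern, with 258 RPKM in PDAC primary 5. Prdx2, of the same list, did not separate the libraries in this way. It was at 946, 297 and 754 RPKM in PDAC liver metastases 1 and 5 and the PDAC lung metastasis. PDAC primaries 1 and 5 held 218 and 221 RPKM of it, BC lung metastasis 6 held 444 RPKM and the other BC libraries 99.1 to 197 RPKM. Car1, another carbonic anhydrase gene, was listed at 0 in PDAC liver metastasis 1.

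Of the nuclear regulators of the lineage, Gata1, Klf1 and Tal1 were at low levels or listed at 0 where haemoglobin was high. Gata1, the erythroid GATA factor, was at 3.95 RPKM in PDAC liver metastasis 5 and 2.44 RPKM in PDAC primary 1 and was listed at 0 in the other 7 libraries, including PDAC liver metastasis 1 and the PDAC lung metastasis. Klf1, the erythroid Krüppel-like factor, was at 4.91 RPKM in PDAC liver metastasis 5 and at or below 0.161 RPKM elsewhere. Tal1 reached 0.226 RPKM, in the same library. PDAC liver metastasis 5 had a scaling total of 36400000 reads and 18717 genes above 0. PDAC liver metastasis 1 had 17300000 reads and 12144 genes, and the PDAC lung metastasis 12800000 reads and 9530 genes. The part of depth in the values listed at 0 was not tested. Lmo2 and Nfe2, which other blood cells also use, were at 11.5 to 52.3 RPKM and 29.1 to 180 RPKM in the PDAC metastases, and Lmo2 was highest in PDAC primary 1 at 225 RPKM. Of the 6 regulators tested between PDAC liver metastases and primaries, 4 had positive and 2 negative differences, and none passed limma after adjustment.

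**Figure D4:**
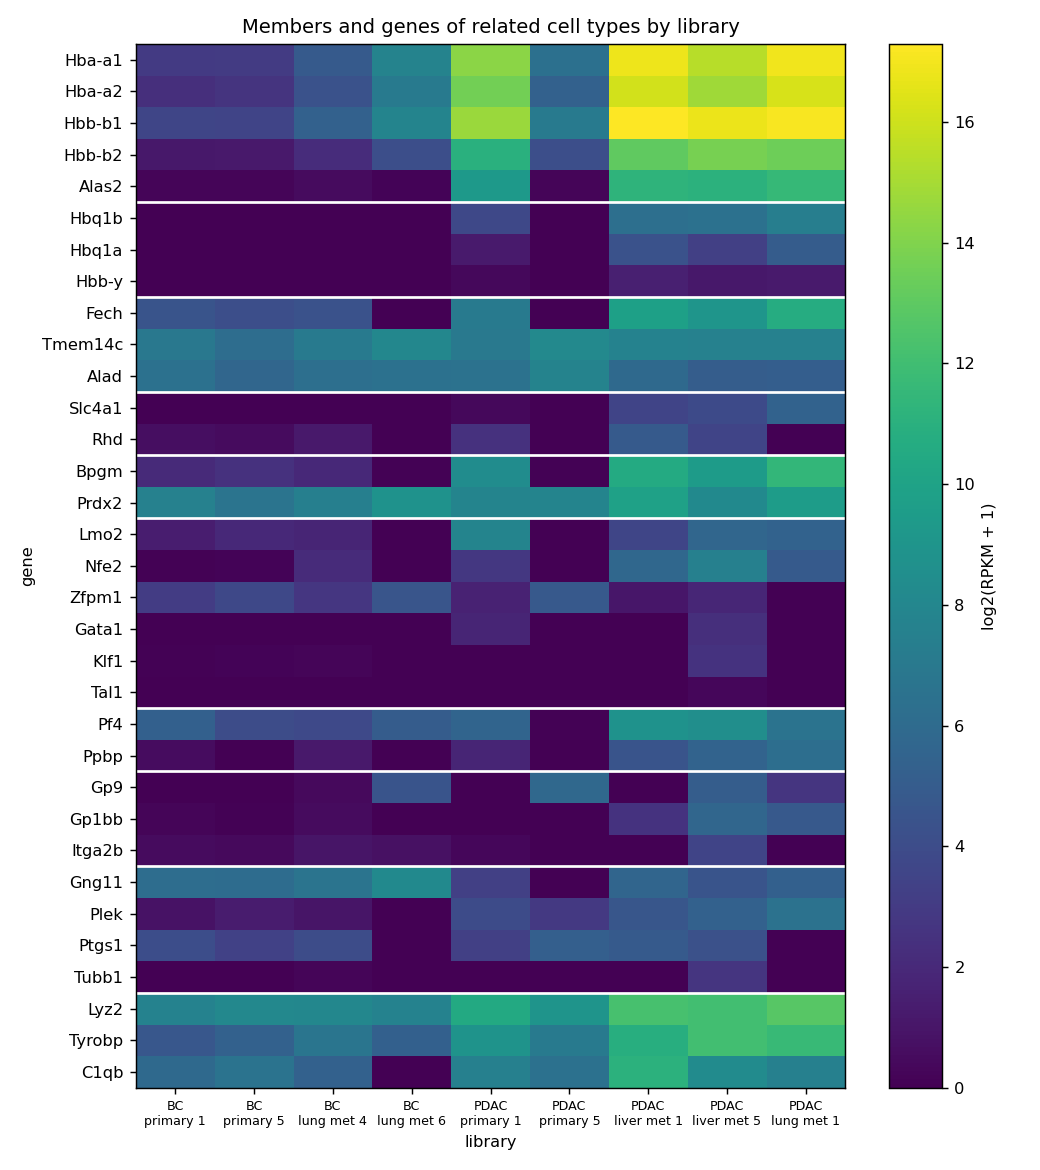
Colour gives log2(RPKM + 1) for the 7 members and 26 related genes (rows, separated by white lines into erythroid members, other globins, haem synthesis, membrane, red cell enzymes, regulators, platelet members, platelet receptors, platelet cytoskeleton and cargo, and macrophage genes) in the 9 libraries. Bpgm and Fech are bright in the haemoglobin-rich libraries, whereas Gata1, Klf1 and Tal1 stay dark there apart from low values in PDAC liver metastasis 5 and PDAC primary 1.

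Platelet genes beyond Pf4 and Ppbp were detected unevenly among the PDAC metastases. Among 11 receptor genes, 9 were above 1 RPKM in PDAC liver metastasis 5, 4 in the PDAC lung metastasis and 1 in PDAC liver metastasis 1. These libraries had 18717, 9530 and 12144 genes above 0. Of the 15 red cell membrane and skeleton genes, 0, 9 and 4 were listed at 0 in the same order. The part of library depth in the receptor counts was not tested. Itga2b, the integrin alpha IIb gene, was at 10.4 RPKM in PDAC liver metastasis 5, listed at 0 in PDAC liver metastasis 1 and almost absent from the PDAC lung metastasis (0.0144 RPKM), although Pf4 was higher in PDAC liver metastasis 1 than in either. Tubb1, the platelet beta-tubulin gene, was at 5.40 RPKM in PDAC liver metastasis 5 and at or below 0.176 RPKM elsewhere. Gp1bb, of the von Willebrand factor receptor, was at 4.77, 50.5 and 27.3 RPKM in the PDAC metastases and at or below 0.429 RPKM elsewhere. Gp9, of the same receptor complex, did not follow Pf4: its highest values were 56.8 RPKM in PDAC primary 5 and, after PDAC liver metastasis 5 with 33.6 RPKM, 21.4 RPKM in BC lung metastasis 6, and listed at 0 in PDAC liver metastasis 1.

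Of 6 tested receptor genes (Clec1b, whose values are not given, among them) and 9 tested cytoskeleton, enzyme and cargo genes, none passed limma after adjustment between PDAC liver metastases and primaries, with medians of 0.94 and 1.59. In PDAC against BC metastases the 1 that passed was Plek, the gene of the platelet and leukocyte protein pleckstrin, at 5.29 with an adjusted p of 0.0448. Gng11, a G protein subunit gene, was instead highest in BC lung metastasis 6 at 294 RPKM, against 21.9 to 47.7 RPKM in the PDAC metastases.

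Pf4 can also be expressed by macrophages, whose genes were highest in the same group of libraries. The 10 macrophage markers summed to 298 to 641 RPKM in the BC libraries, 2714 and 768 RPKM in PDAC primaries 1 and 5 and 10110 to 11592 RPKM in the PDAC metastases. C1qb, a complement gene of tissue macrophages, was at 2222 and 330 RPKM in the PDAC liver metastases and 181 RPKM in the PDAC lung metastasis, the same order as Pf4. Other libraries departed from that order: C1qb was at 87.2 RPKM in PDAC primary 5, where Pf4 rested on about 1 read, and at 0.0197 RPKM in BC lung metastasis 6, where Pf4 was at 31.6 RPKM. The more abundant markers were ordered otherwise, Lyz2 at 4925, 4309 and 7064 RPKM and Tyrobp at 1825, 4334 and 3174 RPKM in liver metastases 1 and 5 and the lung metastasis. The 10 neutrophil markers summed to 218635 RPKM in PDAC liver metastasis 5, 8742 RPKM in PDAC liver metastasis 1 and 21139 RPKM in the PDAC lung metastasis. The part of either cell type in the values of Pf4 and Ppbp was not tested.

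The genes whose log2 values ran most closely with each profile over the 9 libraries were found by Pearson r. For Alas2 they included Iffo1 (0.996), Sirpb1c (0.994), Fam46c (0.990) and Pik3r5 (0.988). For mean haemoglobin they included Tnfaip8 (0.988), Sirpb1c (0.986), Gmfg (0.979) and Iscu (0.974). Ppbp ran with Adipor1 (0.992), Peli2 (0.990), Irg1 (0.987), U1 (0.985) and Gzma (0.985), and Pf4 less closely with Ccndbp1 (0.950), Ptpn1 (0.942), Rab32 (0.937), Cndp2 (0.934) and Tmem219 (0.925). None of the 5 genes nearest to Pf4 or Ppbp came from the platelet lists.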

How the data were processed

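The 9 libraries were made, per the labels' protocols, from at least 100 ng of total RNA with the SMART-seq v4 kit and Nextera XT, which do not mark strand. Per the submitters' processing notes, reads were placed on mm9; aligner, counter and annotation are not given in the sources used here. Values deposited by the authors were read as RPKM, although the table is named CPM: low values times GENCODE M21 gene length were whole multiples (within 0.02) of 1 step per library for 62.8 to 74.3% of values, against 5.79 to 6.88% without the length. Lengths were found for 93.0% of genes. The same step gave the scaling totals and approximate reads, 21300000 to 128000000 on genes.

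limma 3.58.1 (R 4.3.3, statmod 1.5.0; trend and robust options) was fitted to log2(RPKM + 1) of 12832 genes that reached 1 RPKM in 2 or more libraries, in 1 fit with a mean per group (4 residual degrees of freedom), or with the model as covariate (6). p-values are two-sided and Benjamini-Hochberg adjusted over all 12832 genes, and a gene passed under 0.05. They measure the spread between these libraries, moderated over genes, and the labels do not always tie libraries to separate animals. The single PDAC lung metastasis has no replicate and took its spread from the other groups. The procedure was tested on simulated independent libraries whose spread per gene was capped below that of every member in the PDAC primaries. That test does not cover spreads as wide as theirs. PDAC numbers pair libraries by the shared age and genotype labels, and fits without the replicate block treated such libraries as independent. Deviations from the group means of PDAC primary 1 and PDAC liver metastasis 1 had a correlation of -0.165 over 12832 genes. BC groups share no number. Members and lists were chosen with earlier results of these data known. Named genes were the 7 members, the 3 genes with the highest mean of each list, Gata1, Klf1, Tal1, Itga2b, Gp9 and Tubb1, and the 5 most correlated genes per profile, predicted loci aside. Some of the genes this rule names are not reported here. Of the lists, 7 genes were matched by Ensembl identifier after a symbol change and 5 were not matched. The table held exactly 1 for 11 genes in at least 5 libraries, none of them a member, and no value of such a gene is given. Alternatives covered pseudocount, filter, scaling, moderation, samples and pairing.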

Additional observations from a re-analysis of the deposited data

Results flagged for a closer look

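Among the 4 primary tumours, Alas2 in PDAC primary 1, at 627 RPKM, stood apart from the other 3, which lay between 0.173 and 0.189 RPKM. Its distance to the nearest of them took 0.998 of the whole range, above Dixon's critical value for 4 samples. The 4 libraries come from 2 models, and chance marks about 1 in 20 groups tested in this way.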

How the results depend on the processing

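Over 1032 values of single members under alternatives, 914 kept their direction and side of the threshold, 41 newly passed, 58 no longer passed and 19 changed sign. For PDAC against BC metastases, 5 members passed; 0 passed with a pseudocount of 0.1 or with no filter, 1 with a pseudocount of 0.01 (Hbb-b2) or without the trend and robust options (Ppbp, with all 5 erythroid calls lost), 3 after quantile normalization (Hbb-b2, Alas2 and Ppbp), 2 with the liver metastases alone or the lung metastasis alone (Hbb-b1 and Hbb-b2 in both), and 0 to 7 when 1 library was left out. For BC lung against primary 3 passed in a fit of those libraries alone, and for PDAC lung against primary 1 after quantile normalization (Ppbp). Leaving out 1 library gave 0 to 7 for PDAC liver and for PDAC lung against primary, 0 to 5 for PDAC against BC primaries and 0 to 3 for the difference between models. The 5 for PDAC against BC primaries was also reached without the 3 libraries with the fewest genes above 0, where Pf4 turned to 0.92 and the Hba-a1 difference between models to -0.046.

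With the PDAC number as a replicate block, PDAC liver minus lung became 1.52 for Hba-a1, 1.59 for Hba-a2, 1.95 for Hbb-b1, 1.46 for Hbb-b2 and 1.90 for Alas2. The block lost the call of Alas2 in PDAC against BC metastases (4 passed) and changed no other call. By its design the block carries the gap between the PDAC primaries into PDAC liver minus lung. Leaving out 1 library of a pair removes the spread of that group from the pooled estimate. The cause of the other changes was not tested, beyond the fewer libraries or genes in some fits.

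When 1 library was left out, BC lung minus primary ranged from -0.056 to 0.28 for Alas2, -0.90 to 0.40 for Pf4 and -0.30 to 0.87 for Ppbp. PDAC minus BC primary ranged from -0.019 to 9.05 for Alas2, -4.59 to 0.92 for Pf4 and -0.30 to 1.47 for Ppbp. The difference between models ranged from -1.47 to 6.42 for Hba-a1, -1.35 to 6.85 for Hba-a2 and -0.68 to 6.91 for Hbb-b1, and PDAC liver minus lung from -0.34 to 0.18 for Hbb-b1 and -0.42 to 0.27 for Hbb-b2. Scaling moved the median of all genes: for PDAC liver minus primary it was 0.08, then -0.13 after rescaling without haemoglobin and -0.13 after quantile normalization, against member differences of 3.70 to 5.96 and 4.17 to 4.93. Groups of 1 or 2 libraries limit every comparison, and a lone library was assumed to vary like the others. Depth limits Ppbp and, in PDAC primary 5, Pf4.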
